A study of Danio rerio with 6 samples.

Results

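Potassium channel genes were compared between adult zebrafish brains homozygous for the chrna3 C246X allele and wild-type (WT) brains. The set took every gene of the deposited table whose symbol begins with kcn, one or more letters and a digit, which gave 120 of 23678 genes. Of these, 118 had a mean value of at least 1 over the 6 libraries and were tested among 23104 genes, so the 2 left out, kcnmb3 and KCNJ16, are described only by their values. The members just inside the minimum were kcnh6b with a mean of 1.69, kcnj20 with 1.36 and KCNS3 (ENSDARG00000029511) with 2.19, and just outside it lay kcnmb3 with 0.669 and KCNJ16, listed at 0 in every library.

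Both genotypes are groups of 3 libraries of polyadenylated RNA from whole brains of fish raised to adulthood. In the C246X fish both copies of chrna3, a gene for an alpha subunit of neuronal nicotinic acetylcholine receptors, carry a premature stop made with CRISPR/Cas9. The WT fish carry no stated change. The title of the series concerns alcohol, and the labels name no alcohol treatment of these fish. Neither a closer age, nor the sexes, nor whether a library is 1 fish or a pool is stated. The spread behind each p-value is therefore that of these libraries and could be technical. Values are read estimates scaled by a single factor for each library, with sums of 25655952 to 26794838. They are not scaled to gene length, so levels are compared between libraries and not between genes. Fold changes are differences of log2(value + 1), C246X minus WT, with their standard error (SE), from limma over all 23104 genes. A gene passed where its p, adjusted by Benjamini-Hochberg over those genes, was under 0.05. Means are given ± SD over 3 libraries a genotype. Symbols in capitals come from the gene-name table as given there, and where 2 copies share a symbol the Ensembl identifier tells them apart.

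Potassium channels let potassium leave a cell and so set its resting voltage, end its action potentials and limit how fast it fires. Voltage-gated Kv channels open on depolarisation, calcium- and sodium-activated channels open when those ions enter, inward rectifiers (Kir) hold the resting voltage or answer to G proteins and ATP, and tandem-pore channels (K2P) carry a steady background current. Auxiliary subunits bind the pore subunits and change their gating or their transport to the membrane. Zebrafish keep many of these genes as a pair of copies from a genome duplication in the teleost lineage.

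The transcript of chrna3 itself was at 59.8, 40.7 and 57.4 in the C246X libraries and 102, 28.1 and 55.1 in the WT libraries, which overlapped, and a premature stop need not change it. Neuron markers checked the tissue: 22 tested genes summed to 421561 to 447995 in C246X and 396737 to 447154 in WT, and 1 of them passed as higher and 0 as lower. Markers of some other cell types did differ. Over all 23104 genes 11.1% passed as higher and 11.4% as lower, and libraries did not overlap in 20.7% in each direction. Oligodendrocyte and myelin markers summed to 220594 to 249302 in C246X and 309479.6 to 381411 in WT, with 1 of 11 higher and 7 lower. Microglia markers summed to 9877 to 13105 in C246X and 20759 to 22136 in WT, with 0 of 16 higher and 14 lower. Photoreceptor and pineal markers summed to 752 to 10617 in C246X and 13992 to 40773 in WT, with 0 of 41 higher and 26 lower. Of 32 hindbrain and spinal cord markers, 25 had a positive fold change, as did 11327 of all 23104 genes. Their median log2 fold change was 1.60. The WT libraries differed widely among themselves in these markers, with a median coefficient of variation of 78.2%, against 12.1% among C246X libraries. The C246X libraries lay wholly above WT in 15 of the 32 markers and wholly below in 2. Of the 32 markers, 4 passed as higher (12.5%) and 2 as lower (6.25%). Their sums, 8499 to 9493 in C246X and 6244 to 8721 in WT, overlapped. The part of these markers in the results below was not tested, and in whole brains fewer cells of a type and less RNA per cell cannot be told apart.

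Far more potassium channel genes were higher than lower in C246X brains. Of 118 tested members 32 passed as higher and 4 as lower, which is 27.1% and 3.39%, while over all 23104 genes 11.1% passed as higher and 11.4% as lower. The 32 that rose were 14 voltage-gated, 6 ion-activated, 5 tandem-pore and 3 inward rectifier pore genes, 2 silent subunits and 2 auxiliary subunits. The 4 that fell were 2 inward rectifiers and 2 tandem-pore genes. The median log2 fold change of the members was 0.16, against -0.01 over all genes. The C246X libraries lay wholly above the WT libraries in 45 members and wholly below them in 10, and over all genes libraries did not overlap in 20.7% in each direction. Fold changes of the members that passed as higher were mostly below 2-fold.

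**Figure D1:**
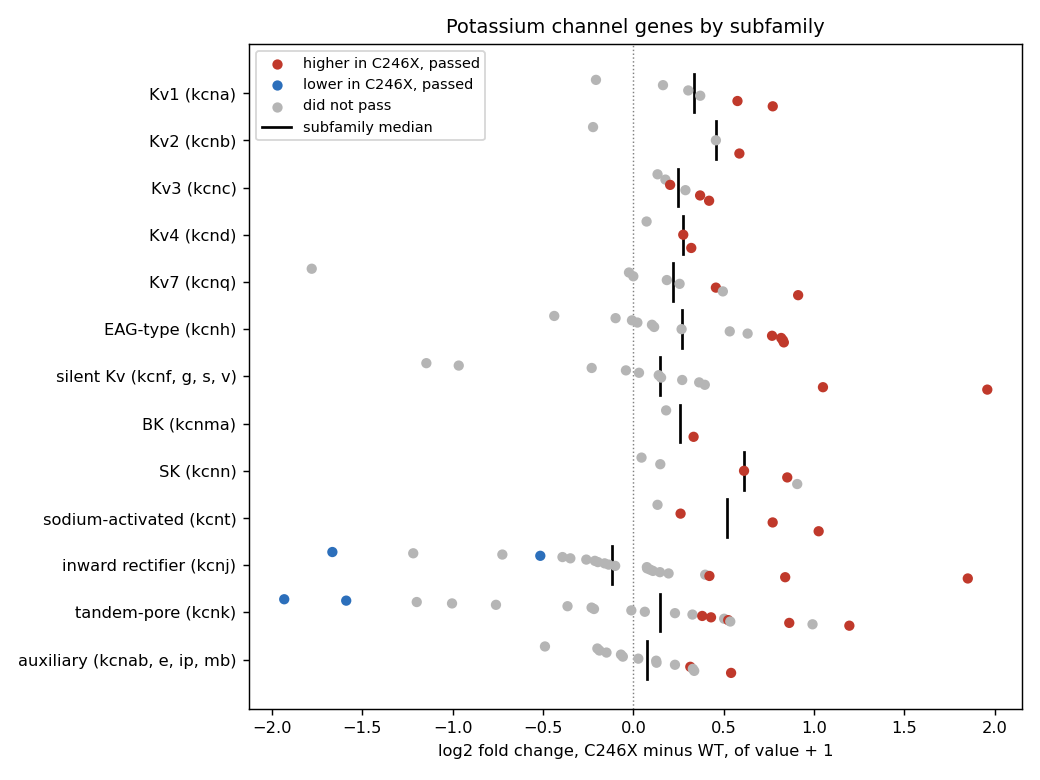
Log2 fold change of value + 1, C246X minus WT (x axis), of the 118 tested potassium channel genes, 1 point a gene, by subfamily (y axis), with red for genes that passed as higher, blue for genes that passed as lower, grey for genes that did not pass and a black bar for the subfamily median. The medians lie above 0 in every subfamily but the inward rectifiers, whose median is -0.12.

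Genes of higher mean value passed more often, so the members were also set beside all genes of the same level, a split chosen after the data were seen. Among genes with a mean of 100 to 1000, 31.7% of 63 members passed as higher and 1.59% as lower, and of all 9076 genes of that level 12% and 12.7%. At a mean of 1000 and over, 38.9% of 18 members and 19% of all genes passed as higher, and 5.56% and 9.75% as lower. At a mean of 10 to 100, 13% of 23 members passed as higher and 4.35% as lower, and of all genes 6.47% and 14.4%. At a mean of 1 to 10, 14.3% of 14 members passed as higher and 7.14% as lower, and of all genes 3.57% and 6.29%. Gene length moved with the fold change as well, among the 15221 of 23104 tested genes (65.9%) that could be joined to a span. Genes that share a symbol were not joined. In the eighth of joined genes with the longest span, 75.5 kb and over in the GRCz12tu assembly, 24.1% passed as higher and 5.99% as lower. In the eighth with the shortest span these shares were 6.31% and 14.8%. Only 65 of 118 members (55.1%) could be joined to a span, so a check of the members by span was void, and the part of gene length in their rise was not tested.

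**Figure D2:**
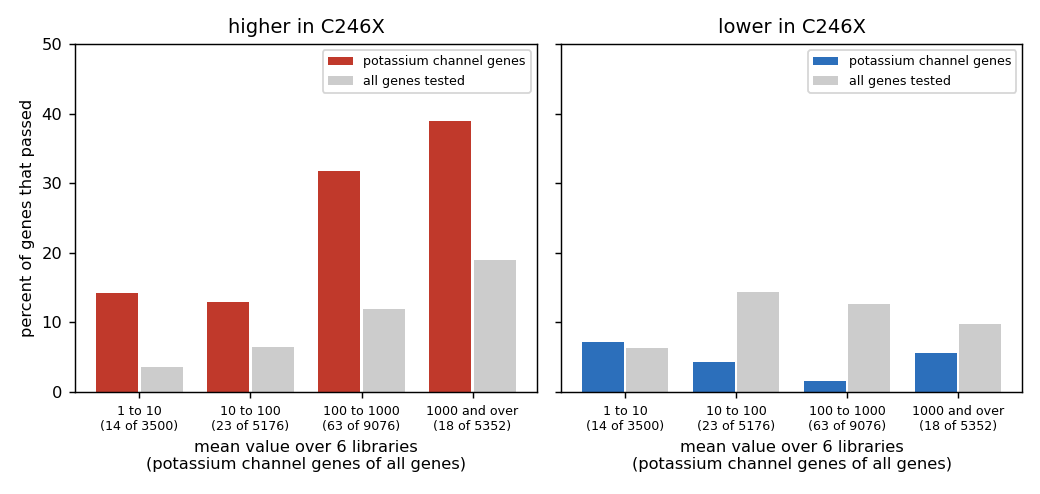
Percent of genes that passed as higher (left) or lower (right) in C246X brains (y axis) by mean value over 6 libraries (x axis, with the number of potassium channel genes of all genes), in colour for potassium channel genes and grey for all genes tested. At a mean of 100 to 1000, 31.7% of the members and 12% of all genes were higher.

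Genes of the Kv1 subfamily, whose channels sit along axons and restrain firing near threshold, had 2 of 6 higher (33.3%) and 0 lower. Over all genes 11.1% were higher and 11.4% lower. KCNA4 (ENSDARG00000078650), which encodes a fast-inactivating Kv1 subunit, had 805, 809.7 and 799 in C246X libraries, against 441, 446 and 531 in WT libraries. All C246X libraries lay within a narrow band above the WT libraries, and the gene rose (log2 fold change 0.77, SE 0.089, adjusted p = 0.000894). KCNA1 (ENSDARG00000062942), a copy of the gene for the axonal Kv1.1 subunit, which causes episodic ataxia in humans when mutated, had 3269, 2546 and 2531 in C246X libraries, against 2116, 1596 and 1883 in WT libraries. The groups did not overlap and the gene rose (log2 fold change 0.58, SE 0.13, adjusted p = 0.0159), but without C246X replicate 1 or WT replicate 3 it did not pass (adjusted p = 0.0508 and 0.0538). The other KCNA1 copy (ENSDARG00000017108) averaged 314 ± 34.2 in C246X and 255 ± 35.2 in WT and did not pass, and neither did the KCNA2 copies, whose log2 fold changes were 0.37 (ENSDARG00000102064) and 0.16 (ENSDARG00000002241). kcna7 was low, at 12.9 ± 6.55 in C246X and 14.4 ± 4.21 in WT. Of the Kv2 subfamily, the delayed rectifiers of cell bodies and dendrites, KCNB2 averaged 176 ± 34.2 in C246X and 127 ± 14.6 in WT with no overlap and did not pass (adjusted p = 0.0985), and kcnb2a had a log2 fold change of -0.22 with groups that overlapped.

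All 6 genes of the Kv3 subfamily, whose channels close fast and let neurons fire at high rates, had positive log2 fold changes of 0.13 to 0.42. Of these, 3 passed as higher (50%), against 11.1% over all genes. KCNC2 (ENSDARG00000057468) had 765, 798 and 798 in C246X libraries, against 556, 601 and 609 in WT libraries. KCNC2 had the largest fold of the subfamily (log2 fold change 0.42, SE 0.071, adjusted p = 0.00529). kcnc4 averaged 379 ± 19.1 in C246X and 335 ± 24.01 in WT with no overlap and did not pass. The KCNC1 copy ENSDARG00000051852, a gene for Kv3.1, had 8181, 7809 and 7519 in C246X libraries, against 6682, 6847 and 6883 in WT libraries, a small rise with no overlap (log2 fold change 0.20, SE 0.053, adjusted p = 0.0294). The second KCNC1 copy (ENSDARG00000032959), named after its values were seen, averaged 1298 ± 127 in C246X and 1006 ± 109 in WT and also rose (log2 fold change 0.37, adjusted p = 0.0352). Neither KCNC1 copy held when single libraries were left out: ENSDARG00000051852 passed only without WT replicate 2 (adjusted p = 0.0512 to 0.0998 in the others), and ENSDARG00000032959 passed in 2 of 6 such fits, with an adjusted p of up to 0.121. kcnc3a had 3664, 3041 and 2985 in C246X libraries, against 2428, 3052 and 2467 in WT libraries, where WT replicate 2 overlapped the C246X libraries, and it passed only without that replicate (adjusted p = 0.0305). Genes of the Kv4 subfamily, which carries the transient A-type current of dendrites, had 2 of 3 higher (66.7%), against 11.1% over all genes. KCND3 (ENSDARG00000056101) had 1564, 1564 and 1552 in C246X libraries, against 1262, 1215 and 1273 in WT libraries, the tightest C246X values of the subfamily. KCND3 rose (log2 fold change 0.32, SE 0.055, adjusted p = 0.00555). KCND2 (ENSDARG00000032799), the gene for Kv4.2, averaged 2673 ± 145 in C246X and 2208 ± 141 in WT and rose by 0.28 (adjusted p = 0.0252), but not without C246X replicates 1 or 2 or WT replicate 3 (adjusted p = 0.0737 to 0.0932). kcnd1 averaged 686 ± 69.2 in C246X and 653 ± 70.3 in WT and did not pass.

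The Kv7 subfamily carries the M current, a slow potassium current that muscarinic acetylcholine receptors close in mammalian neurons. None of its 8 genes passed as lower, against 11.4% over all genes, a share at which few of 8 genes would pass. KCNQ3 (ENSDARG00000060085), for a subunit of the channel that carries this current, had 709.8, 624 and 633 in C246X libraries, against 313, 355 and 378 in WT libraries. Every C246X library exceeded every WT library by over 1.5-fold, and the gene rose (log2 fold change 0.91, SE 0.10, adjusted p = 0.000708). KCNQ5 averaged 383 ± 6.12 in C246X and 321 ± 19.5 in WT, with no overlap, and did not pass (adjusted p = 0.0752), and kcnq5a had a log2 fold change of -0.025. kcnq1.2, a copy of a gene known from heart and epithelia, had 9.29, 6.11 and 9.07 in C246X libraries, against 10.95, 48.2 and 49.8 in WT libraries. WT replicate 1 lay near the C246X libraries and the other WT libraries far above them, and the fold change of -1.78 did not pass (adjusted p = 0.0583), and it did without WT replicate 1 (adjusted p = 0.00465). kcnq1.1 was low, with a log2 fold change of 0.18.

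EAG-type genes (kcnh), which encode the Kv10, Kv11 and Kv12 channels, had 4 of 13 higher (30.8%) and 0 lower, against 11.1% and 11.4% over all genes. The 4 had closely similar log2 fold changes of 0.77 to 0.83. kcnh7 (ENSDARG00000062687), an ERG-type gene whose channels close slowly and damp repeated firing, had 794, 748 and 667 in C246X libraries, against 390.3, 461 and 445 in WT libraries. kcnh7 rose (log2 fold change 0.77, SE 0.099, adjusted p = 0.00149). The KCNH4 copy ENSDARG00000062565, of the ELK type, had 673, 596 and 550.0 in C246X libraries, against 311, 402 and 311 in WT libraries. kcnh3 (ENSDARG00000069560), of the same type, had 393, 382 and 391.9 in C246X libraries, against 180.2, 230.1 and 257 in WT libraries. Both rose with no overlap (log2 fold change 0.83 and 0.82, adjusted p = 0.00327 and 0.00494). The KCNH2 copy ENSDARG00000106473, of the gene known as HERG for its part in heart repolarisation, had 161, 146 and 144 in C246X libraries, against 64.7, 97.5 and 94.3 in WT libraries. This HERG copy rose (log2 fold change 0.83, SE 0.19, adjusted p = 0.018), though not without C246X replicates 1, 2 or 3 (adjusted p = 0.055 to 0.0719). Its second copy (ENSDARG00000029881), kcnh6a and the KCNH5 copy ENSDARG00000043220 also lay wholly above WT and did not pass, with log2 fold changes of 0.53, 0.27 and 0.63. The other KCNH4 copy (ENSDARG00000061990) averaged 2253 ± 244 in C246X and 2411 ± 234 in WT, with groups that overlapped. The KCNH1 copies had log2 fold changes of 0.022 and 0.11, and KCNH8 one of 0.10. The second KCNH5 copy (ENSDARG00000069117) averaged 116 ± 9.66 in C246X and 117 ± 14.4 in WT.

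Silent Kv subunits (kcnf, kcng, kcns and kcnv) pass no current alone and change the channels that Kv2 subunits form. Of 12 genes 2 were higher (16.7%) and 0 lower, against 11.1% and 11.4% over all genes. The KCNS3 copy ENSDARG00000006891 had 101, 99.8 and 97.7 in C246X libraries, against 61.7, 39.2 and 44.5 in WT libraries. Its C246X values were close together and all above WT, and this copy rose (log2 fold change 1.05, SE 0.21, adjusted p = 0.0112). kcng4b (ENSDARG00000051892) was low, at 8.25, 7.13 and 15.1 in C246X libraries, against 0.996, 4.02 and 1.06 in WT libraries. kcng4b rose (log2 fold change 1.96, SE 0.55, adjusted p = 0.0363), the largest fold among the members above 0 in every library. At such values few reads decide the fold, and it passed only without WT replicate 2 when single libraries were left out (adjusted p = 0.0696 to 0.124 in the others). KCNG1 had 339, 322 and 339 in C246X libraries, against 344, 474 and 369 in WT libraries, where all C246X values lay below WT, and did not pass (log2 fold change -0.23, SE 0.13, adjusted p = 0.234). The KCNF1 copy ENSDARG00000027285 averaged 1047 ± 48.8 in C246X and 1028 ± 95.9 in WT. The other KCNF1 copy, KCNG2, KCNG3, KCNG4 and KCNV1 had log2 fold changes of 0.36, 0.14, 0.40, -0.042 and 0.27, and none passed. The KCNV2 copies, whose mammalian gene works in photoreceptors, had 1.03, 2.04 and 3.02 in C246X libraries, against 6.97, 3.01 and 7.41 in WT libraries (ENSDARG00000076644), and 1.03, 2.04 and 4.03 in C246X libraries, against 3.98, 3.01 and 10.6 in WT libraries (ENSDARG00000062906). Neither passed (adjusted p = 0.159 and 0.283), and photoreceptor markers were lower in the same libraries, as given above. The second KCNS3 copy (ENSDARG00000029511), at the minimum, was at 0 in 1 C246X and 2 WT libraries.

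Genes of channels opened by intracellular ions had positive log2 fold changes throughout, 0.045 to 1.03. Of the 11, 6 were higher (54.5%) and 0 lower, against 11.1% and 11.4% over all genes. The KCNT1 copy ENSDARG00000079484, a gene for the sodium-activated channel Slack, had 1199.9, 1055 and 1084 in C246X libraries, against 476, 593 and 575 in WT libraries. Its C246X values were 2.04 times the WT values with no overlap (log2 fold change 1.03, SE 0.10, adjusted p = 0.000429), the smallest adjusted p among all potassium channel genes. The other KCNT1 copy (ENSDARG00000104868) had 2148, 1955 and 1899.8 in C246X libraries, against 1553, 1777 and 1679.9 in WT libraries. This second copy rose less (log2 fold change 0.26, SE 0.074, adjusted p = 0.0389), passing only without WT replicate 2 when single libraries were left out (adjusted p = 0.0655 to 0.128 in the others). kcnt2b (ENSDARG00000113064), a copy of the gene for the related channel Slick, had 283, 263 and 228 in C246X libraries, against 119, 168 and 168 in WT libraries. kcnt2b rose (log2 fold change 0.77, SE 0.17, adjusted p = 0.0143), but not without C246X replicates 1 or 2 (adjusted p = 0.0626 and 0.0545). kcnt2a averaged 36.0 ± 7.65 in C246X and 32.8 ± 7.56 in WT and did not pass.

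The big-conductance (BK) channel opens on calcium and voltage together. The KCNMA1 copy ENSDARG00000079840 had 2594, 2530.0 and 2307 in C246X libraries, against 1759, 2027 and 2124 in WT libraries. That KCNMA1 copy rose (log2 fold change 0.33, SE 0.084, adjusted p = 0.0248), though not without C246X replicates 1 or 2 (adjusted p = 0.0939 and 0.0874), and the other KCNMA1 copy (ENSDARG00000110727) averaged 134 ± 17.1 in C246X and 120.1 ± 30.5 in WT. Small-conductance (SK) channels, which calcium opens through calmodulin, carry the pause that follows a spike. kcnn1b (ENSDARG00000023546) had 170.2, 148 and 192 in C246X libraries, against 95.6, 95.5 and 89.0 in WT libraries, with WT values close together. kcnn1b rose (log2 fold change 0.85, SE 0.15, adjusted p = 0.00618). Its copy kcnn1a averaged 5425 ± 116 in C246X and 4900.4 ± 334 in WT, with no overlap, and did not pass (adjusted p = 0.128). KCNN2 (ENSDARG00000014939) had 161, 141 and 136 in C246X libraries, against 96.6, 76.4 and 115 in WT libraries. KCNN2 rose (log2 fold change 0.61, SE 0.19, adjusted p = 0.0473), but passed only without WT replicate 3 when single libraries were left out (adjusted p = 0.0809 to 0.151 in the others), and not with no filter, a pseudocount of 10 or total-count scaling (0.0511 to 0.0692). kcnn3 averaged 1789 ± 52.9 in C246X and 1734 ± 40.9 in WT, a log2 fold change of 0.045 with a 95% interval of -0.083 to 0.17, and kcnn4, known from blood cells and epithelia, averaged 16.0 ± 4.20 in C246X and 8.42 ± 3.66 in WT.

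**Figure D3:**
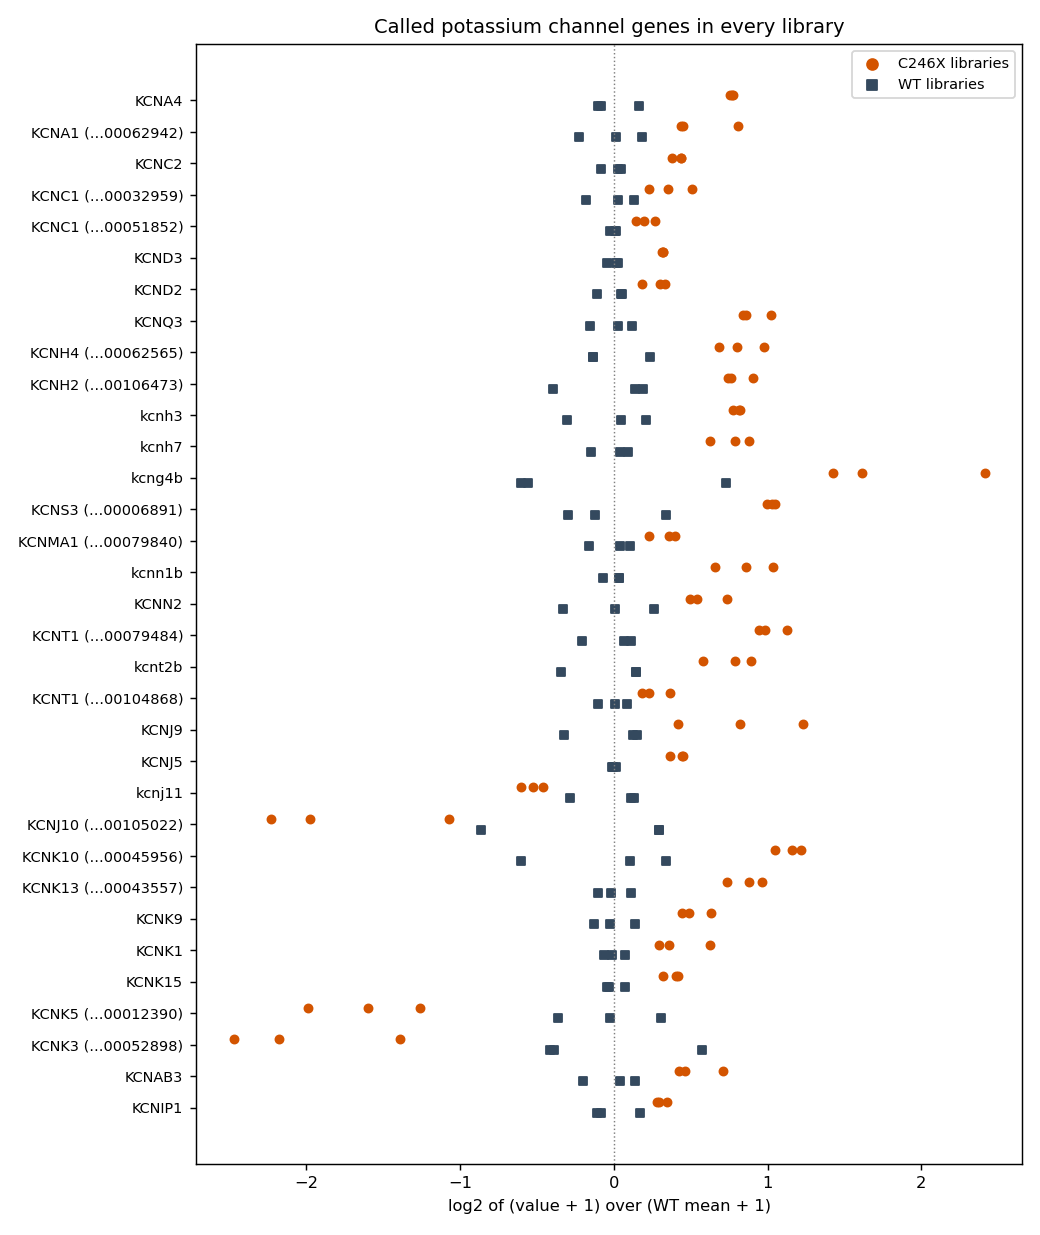
Value in each library as log2 of (value + 1) over (WT mean + 1) (x axis) for potassium channel genes that passed (y axis, in the order of the subfamilies, with the last digits of the identifier where a symbol is shared), as orange circles for C246X and dark squares for WT libraries. kcnj20 is left out because it is listed at 0 in all WT libraries. The 2 genotypes do not overlap in any of these genes, and the lowest C246X libraries of KCNK3 and KCNJ10 are the points furthest to the left.

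Inward rectifier genes went both ways, with 3 of 22 higher and 2 lower and a median of -0.12. These shares, 13.6% and 9.09%, were near those over all genes, 11.1% and 11.4%. The KCNJ10 copy ENSDARG00000105022, whose mammalian protein Kir4.1 takes up potassium in glia, had 5291, 2376 and 2829 in C246X libraries, against 13643, 13657 and 6113 in WT libraries. WT replicate 3 lay well below the other WT libraries and C246X replicate 1 close to it, and the gene fell (log2 fold change -1.67, SE 0.37, adjusted p = 0.0153). It did not pass without C246X replicates 2 or 3 (adjusted p = 0.0588 and 0.0608), with robust moderation (0.0845) or with no filter (0.0507). Among 13 radial glia markers 0 were higher and 4 lower, with sums of 166059.5 to 180446 in C246X and 173119.6 to 191687 in WT, and the sums of oligodendrocyte markers did not overlap, as given above. The second KCNJ10 copy (ENSDARG00000090815) had 582, 468 and 529.9 in C246X libraries, against 588, 564 and 578 in WT libraries and did not pass. kcnj11 (ENSDARG00000051880), the gene for the pore of the ATP-sensitive channel, had 191, 181 and 200.5 in C246X libraries, against 226, 298 and 302 in WT libraries. kcnj11 fell (log2 fold change -0.52, SE 0.14, adjusted p = 0.0321), but passed only without WT replicate 1 when single libraries were left out (adjusted p = 0.072 to 0.105 in the others). Its paralogue kcnj11l averaged 731 ± 21.3 in C246X and 687 ± 55.2 in WT, and KCNJ8, the pore gene of pericytes in mammals, 66.2 ± 10.5 in C246X and 70.9 ± 9.67 in WT.

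G protein-gated Kir3 channels open when receptors such as muscarinic and opioid receptors release beta-gamma subunits. KCNJ5 (ENSDARG00000061014) had 465, 442 and 469 in C246X libraries, against 342, 339.6 and 346 in WT libraries, close together within each genotype. KCNJ5 rose (log2 fold change 0.42, SE 0.08, adjusted p = 0.00814). KCNJ9 (ENSDARG00000061636) had 233, 132 and 175 in C246X libraries, against 78.7, 109.5 and 108 in WT libraries. KCNJ9 rose (log2 fold change 0.84, SE 0.23, adjusted p = 0.0352), passing only without C246X replicate 2 when single libraries were left out (adjusted p = 0.0529 to 0.116 in the others). The Kir3 genes KCNJ3 (ENSDARG00000062217) and KCNJ6 averaged 4848 ± 338 in C246X and 4373 ± 67.1 in WT, and 1471 ± 55.6 in C246X and 1409.8 ± 256 in WT, and neither passed (adjusted p = 0.13 and 0.685). The third gene that passed as higher, kcnj20 (ENSDARG00000040701), had 4.13, 2.04 and 2.01 in C246X libraries, against 0, 0 and 0 in WT libraries. It is listed at 0 in every WT library, so no fold is given, and the call was lost in each fit that left out 1 library (adjusted p = 0.0707 to 0.148). KCNJ13, known from pigment epithelium, choroid plexus and, in zebrafish, from the pattern of the skin, had 94.7, 104 and 137 in C246X libraries, against 196, 104 and 303 in WT libraries, with overlap, and did not pass (adjusted p = 0.177). The KCNJ1 copy ENSDARG00000002666, of the gene for a renal channel in mammals, averaged 111 ± 13.8 in C246X and 146 ± 18.0 in WT with no overlap and did not pass (adjusted p = 0.12). The strong rectifier genes of the Kir2 group, KCNJ2, kcnj12a, kcnj12b and kcnj14, had log2 fold changes of -0.21 to 0.40. For kcnj19a, kcnj19b and kcnj21 they were -0.26, 0.074 and -0.20. The second KCNJ1 copy, KCNJ15 and the second KCNJ3 copy were at -0.35, -1.22 and 0.11, and none of these genes passed.

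Tandem-pore genes had 5 of 20 higher (25%) and 2 lower (10%), against 11.1% and 11.4% over all genes. Of the TASK group, whose channels close in acid, the KCNK3 copy ENSDARG00000052898 had 34.0, 27.5 and 59.4 in C246X libraries, against 117, 234 and 119.7 in WT libraries. The highest C246X library lay well below the lowest WT library, and the gene fell (log2 fold change -1.93, SE 0.36, adjusted p = 0.00747), the largest fall of any potassium channel gene. The other KCNK3 copy (ENSDARG00000043466) had 113, 123 and 76.6 in C246X libraries, against 85.6, 87.4 and 72.0 in WT libraries and did not pass. KCNK9 (ENSDARG00000104563), of the same group, had 279, 318 and 288 in C246X libraries, against 201, 226 and 187 in WT libraries. KCNK9 rose (log2 fold change 0.52, SE 0.12, adjusted p = 0.0154), though not without C246X replicates 2 or 3 or WT replicate 3 (adjusted p = 0.05004 to 0.0651). KCNK15 (ENSDARG00000077371), whose mammalian protein has given no current by itself, had 974, 909 and 964 in C246X libraries, against 714, 767 and 705 in WT libraries. KCNK15 rose (log2 fold change 0.38, SE 0.069, adjusted p = 0.00687). The KCNK5 copy ENSDARG00000012390 was low, at 2.06, 4.07 and 3.02 in C246X libraries, against 10.95, 14.1 and 8.47 in WT libraries. The copy fell (log2 fold change -1.59, SE 0.43, adjusted p = 0.0313), passing only without WT replicate 3 when single libraries were left out (adjusted p = 0.0527 to 0.0921 in the others).

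KCNK1 (ENSDARG00000017254), the gene for TWIK1, had 1159, 964 and 921 in C246X libraries, against 789.6, 744 and 716 in WT libraries. KCNK1 rose (log2 fold change 0.43, SE 0.097, adjusted p = 0.0166), except without WT replicate 3 (adjusted p = 0.0614). Of the stretch-sensitive TREK group, the KCNK10 copy ENSDARG00000045956 had 62.9, 56.0 and 60.4 in C246X libraries, against 33.9, 17.1 and 28.6 in WT libraries. This copy rose (log2 fold change 1.20, SE 0.29, adjusted p = 0.0221). It did not pass without C246X replicates 1, 2 or 3 or WT replicate 3 (adjusted p = 0.0505 to 0.0795). The second KCNK10 copy (ENSDARG00000062849) had 882, 853 and 814 in C246X libraries, against 981, 944 and 1042 in WT libraries, wholly below WT, and did not pass (adjusted p = 0.0562), while it did under total-count scaling (0.0433) and with no filter (0.0471). Of the THIK group, which microglia use in mammals, the KCNK13 copy ENSDARG00000043557 had 54.7, 58.1 and 49.4 in C246X libraries, against 28.9, 27.1 and 31.8 in WT libraries. That THIK copy rose (log2 fold change 0.86, SE 0.22, adjusted p = 0.0254). That rise was lost without C246X replicates 1, 2 or 3 or WT replicate 2 (adjusted p = 0.0569 to 0.0895). The other KCNK13 copy (ENSDARG00000008212) had 147, 106 and 94.7 in C246X libraries, against 140.4, 141 and 159.9 in WT libraries and did not pass. In the same libraries 14 of 16 microglia markers were lower, and their part in the values of either copy was not tested. kcnk4a had 3.10, 4.07 and 5.04 in C246X libraries, against 10.95, 7.03 and 14.8 in WT libraries. KCNK6 averaged 100.5 ± 16.3 in C246X and 68.6 ± 7.30 in WT. Neither gene overlapped between the genotypes, and neither passed (adjusted p = 0.0821 and 0.0804). KCNK2 and kcnk2b had log2 fold changes of -0.012 and 0.23. The remaining tandem-pore genes, kcnk1a, the second KCNK5 copy, KCNK12, kcnk12l, kcnk17 and KCNK18, did not pass either, with log2 fold changes of -1.004 to 0.99.

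Auxiliary subunit genes had 2 of 14 higher (14.3%) and 0 lower, against 11.1% and 11.4% over all genes, with a median of 0.08. KCNAB3 (ENSDARG00000074320), for a beta subunit that binds Kv1 channels, had 247, 202 and 208 in C246X libraries, against 165, 155 and 130.3 in WT libraries. KCNAB3 rose (log2 fold change 0.54, SE 0.14, adjusted p = 0.0307). The calcium sensor gene KCNIP1 (ENSDARG00000102210), whose protein binds Kv4 channels, had 559, 539.8 and 535 in C246X libraries, against 408, 415 and 495 in WT libraries. KCNIP1 rose (log2 fold change 0.31, SE 0.095, adjusted p = 0.0475). Both passed in 1 of the 6 fits that left out 1 library, without WT replicate 1 for KCNAB3 (adjusted p = 0.0537 to 0.11 in the others) and without WT replicate 3 for KCNIP1 (0.101 to 0.138). kcnip3b, whose mammalian protein is also known as DREAM, had 316, 305 and 299 in C246X libraries, against 504, 336 and 472 in WT libraries, wholly below WT, and missed the threshold (log2 fold change -0.49, SE 0.15, adjusted p = 0.0503). Without WT replicate 2 it passed (adjusted p = 0.00428), and with total-count scaling, recomputed medians of ratios, robust moderation or a filter of 1 CPM as well (0.0407 to 0.0493). Its copy kcnip3a averaged 1078 ± 57.1 in C246X and 989.8 ± 92.4 in WT, and kcnip1b 4190.5 ± 116 in C246X and 4118 ± 275 in WT, with a 95% interval of -0.12 to 0.17 on the log2 scale. KCNAB1, KCNAB2, kcnab1b and kcnab2a had log2 fold changes of -0.15, 0.13, 0.23 and 0.33, and KCNMB2 and KCNE4 of -0.19 and -0.059. KCNIP2, KCNIP4 and kcnip4b were at -0.20, 0.34 and -0.069, and none of these passed.

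Values were also summed over each class in each library. Voltage-gated pore genes (Kv1 to Kv4, Kv7 and EAG-type) summed to 33565, 30977 and 29744 in C246X libraries and 25126, 25873 and 25714 in WT libraries, and the groups did not overlap. Calcium- and sodium-activated genes summed to 14107, 13470.1 and 13115 in C246X libraries and 10584, 11621 and 11771 in WT libraries, also without overlap. Inward rectifiers summed to 17481, 13383 and 14117 in C246X libraries and 24336, 25044 and 16985 in WT libraries, where C246X replicate 1 exceeded WT replicate 3, and tandem-pore genes to 4415, 4106 and 4022 in C246X libraries and 3887, 3805 and 3695 in WT libraries. Auxiliary genes, at 8737, 8379 and 8079 in C246X libraries and 8583, 7602 and 7894 in WT libraries, and silent subunits, at 2542, 2284 and 2367 in C246X libraries and 2314, 2419 and 2123 in WT libraries, overlapped. The KCNJ10 copy ENSDARG00000105022 alone made up 5291, 2376 and 2829 of the inward rectifier sums in C246X libraries, and 13643, 13657 and 6113 in WT libraries. The median coefficient of variation of the 118 members was 11.1% among C246X and 12.8% among WT libraries, and over all genes 9.66% and 12.8%.

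The 2 copies of a gene could be compared directly, since their ratio within a library does not depend on the scaling between libraries, apart from the added pseudocount. A pair was taken only where exactly 2 tested genes had the same symbol, or the same but for a final a or b. This gave 27 pairs and leaves out copies whose symbols differ otherwise, such as KCNAB1 and kcnab1b or KCNK1 and kcnk1a. The ratio differed between genotypes in 6 of the 27 pairs (22.2%), and over all 2456 such pairs of the table in 15.8%, by limma on the log2 ratio with adjustment over those 2456. In KCNT1 the ratio of copy ENSDARG00000079484 to copy ENSDARG00000104868 was -0.84, -0.89 and -0.81 in C246X libraries, against -1.70, -1.58 and -1.54 in WT libraries on the log2 scale, so the copy that rose more shifted by 0.76, SE 0.085, adjusted p = 0.0092. In KCNH4 the log2 ratio of ENSDARG00000061990 to ENSDARG00000062565 was 1.78, 2.05 and 1.85 in C246X libraries, against 2.80, 2.71 and 2.96 in WT libraries, a shift of -0.93, SE 0.12, adjusted p = 0.0127. In KCNK13 that of ENSDARG00000008212 to ENSDARG00000043557 was 1.41, 0.86 and 0.93 in C246X libraries, against 2.24, 2.33 and 2.30 in WT libraries, a shift of -1.23, SE 0.16, adjusted p = 0.0127. In these pairs 1 copy rose while the fold change of the other was smaller or negative, with no overlap between C246X and WT libraries. KCNK10 (1.41, SE 0.25, adjusted p = 0.024), KCNH5 (0.64, SE 0.13, adjusted p = 0.0352) and KCNK3 (2.26, SE 0.51, adjusted p = 0.0425) also passed.

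Of the 6 pairs, KCNT1 and KCNK13 passed in every fit that left out 1 library and under each other alternative run for the pairs, and KCNH4 in all of these but the replicate block. KCNK10 did not pass without C246X replicates 1, 2 or 3 or WT replicate 3 (adjusted p = 0.0596 to 0.0827), KCNK3 only passed without C246X replicate 3 (0.0692 to 0.119 in the others), and KCNH5 passed in none of the 6 (0.0566 to 0.106). Among the 27 pairs both copies were higher in 2 pairs, 1 was higher and the other did not pass in 10, 1 was lower and the other did not pass in 3, and neither passed in 12. Copies of 1 gene can share reads, and the way the counting split such reads is not given in the sources used here, so the level of a single copy is uncertain to that extent.

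**Figure D4:**
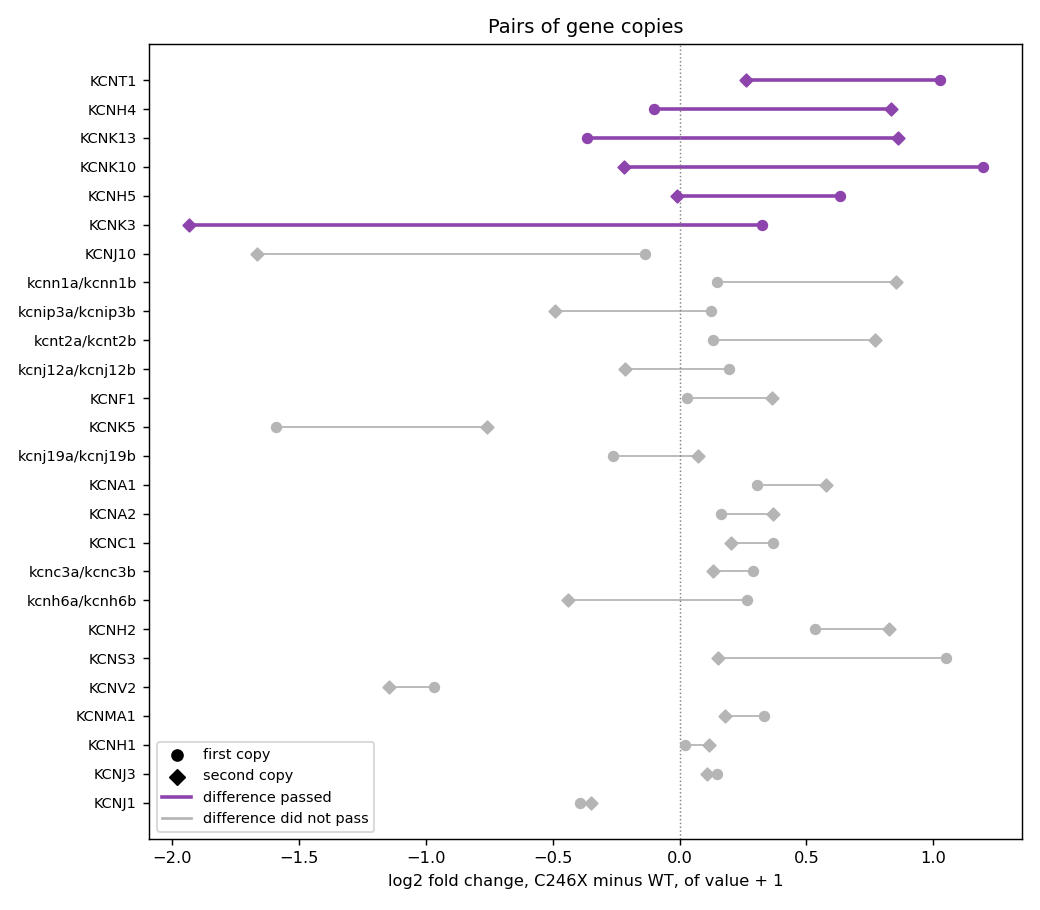
Log2 fold change of value + 1, C246X minus WT (x axis), of both copies in pairs of potassium channel genes matched by symbol (y axis, in order of p for the difference), joined by a line, with circles for the first and diamonds for the second copy by identifier or letter, in purple where the difference passed. The 6 purple lines at the top include KCNK3, whose copies stand at 0.33 and -1.93.

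Genes for proteins that anchor or partner potassium channels were read from lists. Over all genes 11.1% passed as higher and 11.4% as lower. At a mean of 1000 and over these shares were 19% and 9.75%. In the eighth of longest span, among the 65.9% of genes joined to a span, they were 24.1% and 5.99%. The part of level and span in the counts of the lists below was not tested. Of 25 tested genes for the Kv1 cluster at the axon and its anchors (LGI, ADAM22-type, CNTNAP, contactin, DLG and ankyrin genes), 13 were higher and 0 lower, with a median of 0.24 and sums of 105599 to 111456 in C246X and 81492 to 85359.9 in WT. The ankyrin gene ank2b averaged 25358 ± 689 in C246X and 15208 ± 874 in WT, and dlg1a, with the smallest p among those with a negative fold change, averaged 7739.8 ± 603 in C246X and 8799 ± 1586 in WT and did not pass. Genes for Kv4 and Kv2 auxiliary proteins (DPP6, AMIGO and VAP genes) had 0 of 5 higher and 0 lower at a median of 0.06, where DPP6 (ENSDARG00000024744) averaged 3942 ± 159 in C246X and 4481 ± 423 in WT and VAPB 3718 ± 218 in C246X and 3565 ± 199 in WT. BK gamma subunit genes had 0 of 3 in either direction, with 131 ± 7.85 in C246X and 101 ± 6.27 in WT for LRRC38 and 407 ± 38.8 in C246X and 461 ± 35.4 in WT for lrrc38b. ABCC8 (ENSDARG00000051879), which encodes the sulfonylurea receptor that assembles with the kcnj11 product, averaged 2099.7 ± 71.0 in C246X and 1736 ± 61.0 in WT and rose (adjusted p = 0.013), the opposite direction to kcnj11, and 1 of 3 sulfonylurea receptor genes was higher and 0 lower.

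The counts of the lists that follow stand beside 11.1% higher and 11.4% lower over all genes. Among 21 genes for G protein beta and gamma subunits and their regulators 0 were higher and 3 lower, with a median of -0.04, and gnb3b and rgs9bp among the 3 are photoreceptor genes. The third, gnb1a, averaged 15378 ± 264 in C246X and 17921 ± 855 in WT and fell (adjusted p = 0.0277), and GNG7 averaged 1660.5 ± 46.0 in C246X and 1490.5 ± 12.5 in WT and did not pass. Of 18 genes for phosphoinositide supply, phospholipase C beta and calmodulin, on which Kv7 and SK gating depends, 3 were higher and 1 lower, with 813 ± 69.8 in C246X and 429 ± 25.3 in WT for PLCB1, which rose (adjusted p = 0.000452), and 2758 ± 153 in C246X and 3334 ± 233 in WT for PIP5K1C, which fell (adjusted p = 0.0286). HCN pacemaker channel genes and their subunit gene PEX5L had 2 of 8 higher and 0 lower. The HCN4 copy ENSDARG00000061685 averaged 89.1 ± 20.5 in C246X and 29.2 ± 2.17 in WT and rose (adjusted p = 0.00358), while hcn2b averaged 787 ± 21.99 in C246X and 826 ± 52.5 in WT. Of 12 sodium pump genes 2 were higher and 1 lower: the neuronal alpha subunit gene atp1a3a averaged 67017 ± 1241 in C246X and 50512 ± 372 in WT and rose (adjusted p = 0.00268), and an ATP1B1 copy (ENSDARG00000013144) averaged 2483 ± 90.4 in C246X and 3088 ± 312 in WT and fell (adjusted p = 0.0252). Of 8 cotransporter genes of the slc12a family 0 were higher and 1 lower, SLC12A4, at 454 ± 50.2 in C246X and 662 ± 106 in WT (adjusted p = 0.0216).

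The calls rested on 3 libraries a genotype. Of the 36 members that passed, 14 also passed in each of the 6 fits that left out 1 library, 13 as higher and 1 as lower. Among them were KCNA4, KCNC2, KCND3, KCNQ3, kcnh3, kcnh7, KCNH4 (ENSDARG00000062565), KCNS3 (ENSDARG00000006891), KCNT1 (ENSDARG00000079484), kcnn1b, KCNJ5 and KCNK15 of those that rose, and KCNK3 (ENSDARG00000052898) as the 1 that fell. With no filter on low values, KCNC1 (ENSDARG00000032959), KCNIP1, KCNJ9, KCNT1 (ENSDARG00000104868) and kcnj11 also missed the threshold (adjusted p = 0.0502 to 0.0704). Under total-count scaling KCNIP1 and KCNT1 (ENSDARG00000104868) did (0.0738 and 0.0603), and kcnj20 did with a pseudocount of 10 or robust moderation (0.13 and 0.0644). Counted over all 118 members, 15, 16 and 19 passed as higher when C246X replicates 1, 2 and 3 were left out in turn, and 24, 25 and 21 for WT replicates 1, 2 and 3. As lower, 2, 1 and 1 passed without the C246X replicates and 4, 4 and 3 without the WT replicates, and these need not be the genes called from all libraries. Over all 23104 genes, 2569 passed as higher and 2638 as lower from all libraries. Without C246X replicates 1, 2 and 3 these were 1394, 1481 and 1508 higher and 1581, 1718 and 1682 lower. Without WT replicates 1, 2 and 3 they were 2425, 2281 and 1899 higher and 2353, 2111 and 1709 lower. Without WT replicate 1, KCNK5 (ENSDARG00000012390) was lost (adjusted p = 0.0629) and kcnq1.2 gained (0.00465). Without WT replicate 2, that KCNK5 copy and kcnj11 were lost (0.0847 and 0.0857) and kcnip3b gained (0.00428). The 4 that passed as lower in that fit include a further gain that is not given here.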

How the data were processed

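Whole-brain polyadenylated RNA was sequenced as paired reads of 150 bp in 3 C246X and 3 WT libraries, grouped by the genotype and number in the labels, with none left out. The submitters' processing notes name STAR as the aligner and GRCz11 as the genome build. The sources used here do not give the counter, the annotation release or the scaling. The authors' deposited signal is 1 value per gene and library. From the values, it is an estimated read number divided by 1 factor per library: low values are multiples of a step of 0.996 to 1.06, 95.0% to 95.1% of them within 0.03 of a whole multiple, and the steps put depth at 24222347 to 26659977 reads per library. The values were taken as already scaled between libraries, so a test for normalized values was used in place of a count test.

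Values were fitted as log2(value + 1) by genotype with limma 3.58.1 in R 4.3.3, with a mean-variance trend, over the 23104 of 23678 genes with a mean of at least 1, with Benjamini-Hochberg adjustment. The ratio of copies was fitted the same way over 2456 pairs. In a simulation of the comparison of C246X with WT over 23104 genes, 2-fold changes were recovered in 93.8% and 4-fold changes in 100% of changed genes, and 0.0349% of unchanged genes passed. The changed genes were drawn only from genes well above the minimum mean, and all genes had the same simulated dispersion. These rates therefore do not cover members of low value or of wide spread between libraries. Far fewer genes were changed in the simulation than the 22.5% that passed in the data. The adjusted threshold was thus stricter in the simulation, and its rate for unchanged genes does not carry over to the data. A name table gave symbols for 22274 genes. Gene spans came from a table of the GRCz12tu assembly, joined by symbol. Tables and figures were made in Python 3.11.15 (pandas 2.3.3, matplotlib 3.10.9).

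The members, the partner lists and the marker lists were chosen with earlier results of these data known. The rule for named genes took the 12 largest rises and 12 largest falls that passed without overlap, the 2 smallest p in each direction and the 2 highest means of each subfamily, the pairs of copies that differed, and the members next to the minimum. From each partner list it took the smallest p in each direction. KCNC1 (ENSDARG00000032959) and the members named with a value but no call were chosen after their values were seen. Alternatives were 3 other scalings, 2 other filters, pseudocounts of 0.1 and 10, robust moderation, limma-voom on the recovered reads, a replicate block and each library left out. Some genes that this rule takes are not reported here, and counts over a class or list include them.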

Additional observations from a re-analysis of the deposited data

How the results depend on the processing

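No called member changed direction under any of the 16 alternatives, but leaving out 1 library ended many calls. Over the 6 fits without 1 library, members higher numbered 15 to 25 and lower 1 to 4. Among all 23104 genes, 1394 to 2425 were higher and 1581 to 2353 lower in those fits, against 2569 and 2638 from all libraries. By class, the ranges were 8 to 13 higher and 0 to 1 lower for voltage-gated genes, and 1 to 2 higher for silent subunits. They were 1 to 2 higher and 0 to 2 lower for inward rectifiers, and 2 to 5 higher and 1 to 2 lower for tandem-pore genes. For ion-activated genes they were 2 to 5 higher, for auxiliary genes 0 to 1 higher and 0 to 1 lower, and for pairs of copies 3 to 5. Under a replicate block, 24 members were higher, with 1 silent subunit, 1 inward rectifier and 1 auxiliary gene higher, 1 tandem-pore and 1 auxiliary gene lower, and 2 pairs that differed. The block ended the calls of KCNC1 (ENSDARG00000051852), kcng4b, KCNN2, KCNT1 (ENSDARG00000104868), KCNJ9, kcnj20, KCNK13 (ENSDARG00000043557), KCNIP1 and KCNK5 (ENSDARG00000012390), at an adjusted p of 0.0518 to 0.0868 by limma. With a filter of 1 CPM in 3 libraries, 1 silent subunit was higher, 1 tandem-pore and 1 auxiliary gene were lower and 10 pairs differed. With no filter, 1 auxiliary gene was higher and 0 inward rectifiers lower. Robust moderation gave 1 lower voltage-gated, 1 lower inward rectifier and 1 lower auxiliary gene. Recomputed medians of ratios gave 1 lower auxiliary gene, and total-count scaling 1 higher and 1 lower auxiliary gene. The cause of these changes was not tested. Signs were followed only in members that the rule for named genes took or that passed, and turned only in genes that did not pass. Signs of the remaining members were not followed. KCNS3 (ENSDARG00000029511) stood at -0.0653 with a pseudocount of 10. Over the fits without 1 library it ranged from -0.38 to 1.21 on the log2 scale, kcnh6b from -0.95 to 0.0695, KCNF1 (ENSDARG00000027285) from -0.0489 to 0.0762, kcnip1b from -0.0028 to 0.0814 and kcnb2a from -0.43 to 0.0053. KCNH5 (ENSDARG00000069117) ranged from -0.11 to 0.0572, kcnq5a from -0.21 to 0.0967, kcna7 from -0.57 to 0.0525 and KCNMA1 (ENSDARG00000110727) from -0.0065 to 0.36. Same-numbered libraries of the genotypes correlated at 0.0734, 0.0475 and 0.0554 in their deviations, each best with its own number. These values lay under a set minimum of 0.1, so the main fit did not take the numbers as pairs. The labels do not say whether they are pairs, and the calls under a replicate block are given above. With 3 libraries a genotype, genes below a mean of 10 rest on few reads. The planned edgeR test on recovered reads was not run, since the values are not all whole reads. limma-voom was run on the recovered reads as an alternative, and over all genes 2576 passed as higher and 2511 as lower in it.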
